A study of Rattus norvegicus with 6 samples.

Results

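The angiopoietin-TIE and sphingosine-1-phosphate (S1P) genes Angpt1, Angpt2, Tek, Tie1, S1pr1, S1pr2, S1pr3, Sphk1, Sphk2 and Spns2 were followed in total lung of Sprague-Dawley rats. They were taken by symbol, and each of the 10 symbols matched 1 of the 19828 entries of the deposited table. All 10 were among the 15386 genes that passed the filter on low values (3 or more libraries at 1 or above). The groups were wild type and Ahr-KO, which lacks the aryl hydrocarbon receptor by its label, with 3 libraries each. Both groups were labelled with Sugen-Hypoxia treatment (SuHx) and day 56, so no untreated lung was measured here. Sugen is a VEGF receptor inhibitor that is combined with low oxygen to model pulmonary arterial hypertension in rats. The sources used here give neither the kind and position of the Ahr edit nor the age of the animals. Nor do the labels say that samples came from separate animals, and a p-value then reflects only how far these samples spread, a spread that may be technical.

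TIE2, the product of Tek, is a receptor tyrosine kinase of endothelial cells. Angiopoietin-1, made by the cells around the vessel, activates it and tightens endothelial junctions, while angiopoietin-2, released by the endothelium itself, is a weaker, context-dependent ligand that can block this. S1P is a lipid made by the sphingosine kinases and exported from endothelium by SPNS2; it strengthens the barrier through S1PR1 and loosens it through S1PR2. Both systems hold the barrier of the lung capillaries and are studied in pulmonary hypertension.

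Values are estimated reads per gene after the authors' normalisation. Their smallest step put the depth at 12.9 to 23.6 M reads per library, lowest in the libraries numbered 2. The numbers 0 to 2 are names from the table, and no label says that they pair samples. Ahr RNA ranged from 2860.4 to 3395 in WT and from 2399 to 3923 in Ahr-KO, so its level by itself does not check the label, while its target Cyp1a1 stood at 23512 to 37694 in WT and at 0.83 to 10.5 in Ahr-KO. Markers of lung epithelium were abundant in every library: the 8 alveolar markers summed to 381604 to 458615 in WT and 542187 to 606766 in Ahr-KO, and 3 of them passed the test as higher. The 3 were Hopx, Rtkn2 and Ager, while the sums rested most on Sftpc (means of 257583 and 321737), which did not pass. The platelet gene Gp5 and the macrophage gene Marco were listed at 0 in all 6 libraries.

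Of the 10 genes, Tek was higher and S1pr3 was lower in Ahr-KO lungs, and the other 8 did not pass the test. The test was limma-trend on log2(value + 1), with Benjamini-Hochberg adjustment over all tested genes and a threshold of 0.05. The same test called 10.8% of all tested genes, 4.50% as higher and 6.26% as lower, against 1 of 10 members in each direction. Scaling changed that balance over all genes: 692 higher and 963 lower became 449 and 1314 with equal library totals. The values of the groups did not overlap for 5 of the 10 genes, against 34.3% of all tested genes. Tek, Tie1 and Sphk2 lay wholly above WT (17.0% of all tested genes did so), and S1pr3 and Sphk1 wholly below (17.4%). The median log2 difference was -0.19 over the 10 genes and 0.01 over all tested genes. Without both libraries numbered 2, Tek kept its call and S1pr3 did not (1 higher, 0 lower).

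**Figure D1:**
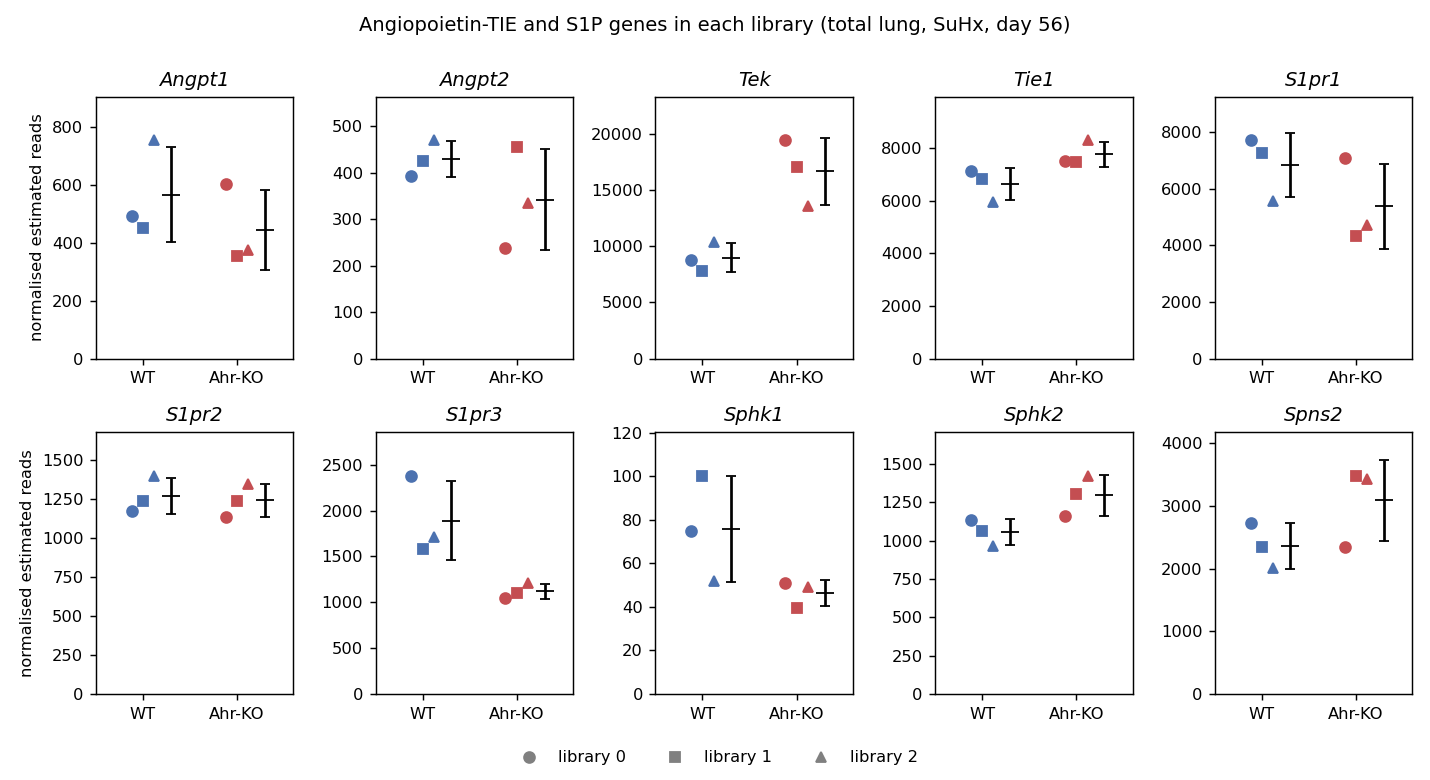
Normalised estimated reads (linear axes from 0) of the 10 genes in the 3 WT (blue) and 3 Ahr-KO (red) libraries, with the symbol marking the library number and the black bar the mean ± SD. Tek lies between 7778 and 10364 in WT and between 13519 and 19401 in Ahr-KO, whereas S1pr1, Angpt1, Angpt2, S1pr2 and Spns2 overlap between the groups.

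The receptor gene Tek carried the largest difference of the set. Listed in the order of libraries 0, 1 and 2, here and below, Tek read 8726, 7778 and 10364 across WT and 19401, 16997 and 13519 across Ahr-KO. Every Ahr-KO library lay above every WT library, and the gap was narrowest between the libraries numbered 2. The means were 8956 ± 1308 and 16639 ± 2957 (SD, n = 3 each), a log2 difference of 0.89 ± 0.16 (SE) or 1.85-fold (95% interval of the log2 difference 0.52 to 1.26, limma adjusted p = 0.016). Of all tested genes, 3.43% had a larger positive log2 difference. The call was lost without WT library 0 (adjusted p = 0.051) or without Ahr-KO library 1 (adjusted p = 0.059), with the log2 difference at 0.87 and 0.86. Lung here was bulk tissue, in which more cells of a type and more RNA per cell cannot be told apart.

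Tie1, which encodes the co-receptor that joins TIE2 and modulates its signalling, differed far less. Tie1 read 7124, 6835 and 5959 across WT and 7519, 7454 and 8291 across Ahr-KO. The groups did not overlap, but the step between them was small beside their spread. The log2 difference was 0.23 ± 0.10 (1.17-fold, 95% interval -0.01 to 0.46, adjusted p = 0.19).

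The ligand genes did not follow Tek upward. Angpt1 read 493, 449 and 753 across WT and 602, 354 and 374 across Ahr-KO. Ahr-KO library 0 lay above WT libraries 0 and 1, so the groups overlapped. The log2 difference of Angpt1 was -0.35 ± 0.26 (95% interval -0.94 to 0.24, adjusted p = 0.41), an interval that leaves room for changes in either direction. Angpt2 read 394, 425 and 470.0 across WT and 237, 455 and 334 across Ahr-KO. Its Ahr-KO values spread more widely (CV 31.9%) than its WT values (CV 8.90%), and library 1 lay inside the WT range. The log2 difference of Angpt2 was -0.38 ± 0.22 (95% interval -0.89 to 0.14, adjusted p = 0.32).

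**Figure D2:**
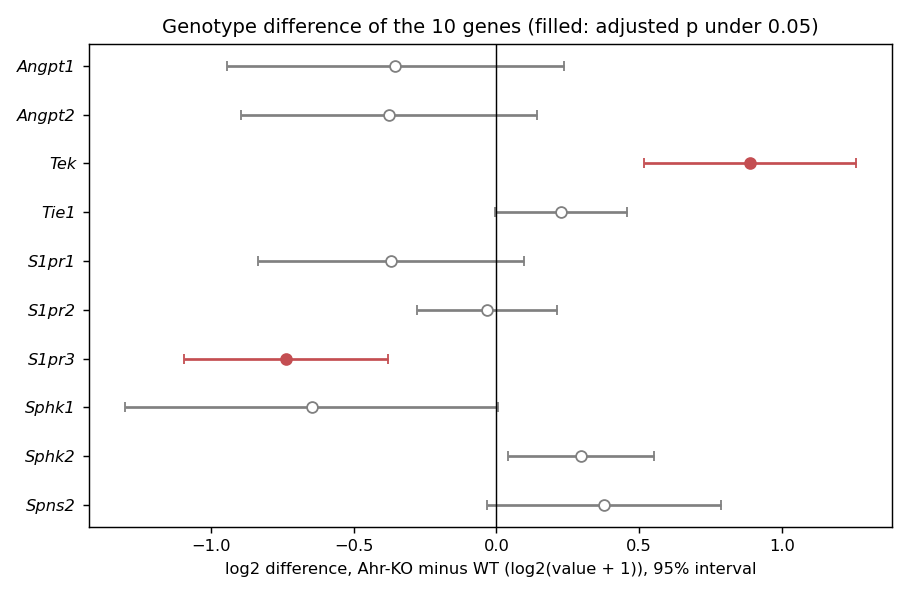
Log2 difference (Ahr-KO minus WT, on the log2(value + 1) scale) of each gene with its 95% interval from the limma fit, filled red where the adjusted p was under 0.05. Only the intervals of Tek, S1pr3 and Sphk2 exclude 0, and Sphk2 did not pass after adjustment over all genes.

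Among the S1P receptors, S1pr3 fell and the others did not pass. S1PR3 couples to several G protein classes and is found on endothelium and smooth muscle. S1pr3 read 2382, 1587 and 1708 across WT and 1049, 1098 and 1210 across Ahr-KO. All Ahr-KO values lay below all WT values, and WT library 0 stood well above the rest. The means were 1892 ± 429 and 1119 ± 82.3 (SD, n = 3 each), a log2 difference of -0.74 ± 0.16 (1.67-fold lower, 95% interval -1.09 to -0.38, adjusted p = 0.025). The call was lost when any 1 Ahr-KO library was left out, at adjusted p = 0.060 without library 0, 0.083 without library 1 and 0.075 without library 2, with log2 differences of -0.69, -0.72 and -0.79. It also ended without the mean-variance trend (adjusted p = 0.070). The negative direction held in each of the 18 alternatives, but leaving libraries out could not turn it, since the groups did not overlap.

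The promoter of S1pr3 is shown because it is the gene of the set that fell and has an entry in the RefSeq promoter table (build GRCr8). The sequence covers 250 bases before and 50 after the annotated start at chr17:13945964-13946263 on the minus strand, written 5′ to 3′ along the gene.
S1pr3 promoter: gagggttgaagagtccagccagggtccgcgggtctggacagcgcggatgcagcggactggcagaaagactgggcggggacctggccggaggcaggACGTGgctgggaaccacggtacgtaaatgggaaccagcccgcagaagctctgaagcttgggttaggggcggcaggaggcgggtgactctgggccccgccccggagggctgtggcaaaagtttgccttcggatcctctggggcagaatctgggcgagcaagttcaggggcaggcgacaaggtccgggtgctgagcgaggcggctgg
Capitals mark the letters searched, GCGTG (the core to which the AHR dimer binds) and ACGTG (with GCGTG, a form of the core bound by hypoxia-inducible factors), on both strands. The S1pr3 window holds 1 ACGTG and 0 GCGTG. Of the 33469 promoter windows of 300 bases in the table, 29.7% hold GCGTG and 19.3% hold ACGTG on either strand. Of the 10 genes, 6 had an entry (S1pr1, S1pr2, S1pr3, Sphk1, Sphk2 and Tie1). GCGTG was found for S1pr2, Sphk1 and Sphk2, of which Sphk1 has 3 windows, while the shares above are per window and not per gene. A match of letters is a description and not a binding site, and the build differs from the rn6 build named for the values.

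S1pr1, the main barrier-protective S1P receptor of endothelium and the exit receptor of lymphocytes, overlapped between the groups. S1pr1 read 7722, 7266 and 5577 across WT and 7106, 4326 and 4721 across Ahr-KO. Ahr-KO libraries 1 and 2 lay below all WT values, and Ahr-KO library 0 lay inside the WT range. The log2 difference was -0.37 ± 0.20 (95% interval -0.84 to 0.10, adjusted p = 0.28). Lymphocyte markers moved with genotype: 7 of 8 T cell markers passed as lower and none as higher, and their summed level was 1422 to 1951 in WT and 696 to 773 in Ahr-KO. Their part in the S1pr1 values was not tested. S1pr2, whose product opposes the barrier effect of S1PR1, read 1172, 1240.1 and 1400.3 across WT and 1138, 1240.5 and 1346 across Ahr-KO, with the ranges nearly the same. Its log2 difference was -0.03 ± 0.11, with an interval of -0.28 to 0.21 (adjusted p = 0.875).

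The enzymes that make S1P and its exporter did not pass, although both kinases separated by genotype. Sphk1, the cytosolic kinase, read 74.97, 100.2 and 51.8 across WT and 50.8, 39.7 and 49.1 across Ahr-KO. WT library 2 lay just above Ahr-KO library 0, so the groups were apart by little. These values rested on 36 to 122 reads per library, the fewest of the set, and the log2 difference was -0.65 ± 0.28 (95% interval -1.30 to 0.0046, adjusted p = 0.18). Sphk2, the kinase that is also found in the nucleus and mitochondria, read 1133, 1062 and 964 across WT and 1159, 1301 and 1423 across Ahr-KO. All Ahr-KO values were higher, with a log2 difference of 0.30 ± 0.11 (95% interval 0.04 to 0.55, adjusted p = 0.13). Spns2 read 2730, 2343 and 2002 across WT and 2346, 3480.3 and 3432 across Ahr-KO. Ahr-KO libraries 1 and 2 lay above the WT range and library 0 lay inside it (log2 difference 0.38 ± 0.18, 95% interval -0.03 to 0.79, adjusted p = 0.21).

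Sphk1 has 3 annotated start sites in the promoter table, and the second is shown because it holds the most GCGTG matches of the set, at chr10:102258004-102258303 on the plus strand of GRCr8.
Sphk1 promoter, second start: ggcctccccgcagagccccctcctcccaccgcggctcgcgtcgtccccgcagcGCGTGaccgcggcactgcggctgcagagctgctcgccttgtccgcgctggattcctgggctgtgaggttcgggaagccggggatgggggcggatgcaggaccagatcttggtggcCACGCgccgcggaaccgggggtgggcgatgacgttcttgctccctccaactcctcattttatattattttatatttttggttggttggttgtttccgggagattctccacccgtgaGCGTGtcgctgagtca
Capitals mark 3 matches, read as GCGTG or as its reverse complement CACGC, and 3.59% of all windows in the table hold 3 or more. This window was picked as the highest of the set's 8, so that share does not measure how rare it is. The window of the third start holds 2 GCGTG and that of the first holds 0. Which start was used in these lungs was not measured.

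Ahr-KO library 0 lay at an end of its group in several of these genes, as any 1 of 3 libraries often does. It had the highest Angpt1, S1pr1 and Tek values and the lowest Angpt2, Spns2, Sphk2 and S1pr3 values of its group. Without it, the log2 difference of Spns2 was 0.56 (adjusted p = 0.052), that of S1pr1 was -0.59 (adjusted p = 0.060) and that of Angpt1 was -0.60 (adjusted p = 0.15), so none passed. That of Sphk2 also grew, to 0.37, and did not pass. Others shrank without this library: Angpt2 went from -0.38 to -0.14 and Tek from 0.89 to 0.77, and S1pr3 lost its call. The depth estimate of Ahr-KO library 0 was the highest of all, at 23.6 M reads, but that of Ahr-KO library 1 was close to it at 22.9 M. The part of depth in these values was not tested.

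Ratios between genes within a library cancel the library's scaling factor apart from the pseudocount of 1, which matters for genes near 0, and 12 were tested by an exact permutation test of 3 against 3 libraries. This 2-sided test cannot give a p below 0.1, and after Benjamini-Hochberg adjustment over the 12 ratios the lowest value was 0.36. Ligand relative to receptor, Angpt1/Tek, was lower in every Ahr-KO library: log2 ratios of -5.01, -5.58 and -5.17 against -4.14, -4.11 and -3.78 in WT (2.37-fold lower, exact permutation p = 0.1). The balance of the 2 ligands, Angpt2/Angpt1, had a mean difference in log2 ratio of -0.02. Its Ahr-KO values ran from -1.34 in library 0 to 0.36 in library 1 (SD 0.87), too wide a spread to show that no shift occurred. Tek/Tie1 was higher on average (1.58-fold), but Ahr-KO library 2 (log2 ratio 0.71) lay below WT library 2 (0.80), so the groups overlapped (exact permutation p = 0.2). Sphk1/Sphk2 was lower in every Ahr-KO library (1.92-fold, exact permutation p = 0.1). Spns2/S1pr1 was -1.50, -1.63 and -1.48 in WT, and -1.60, -0.31 and -0.46 in Ahr-KO, where library 0 again lay with the WT libraries. The S1pr2/S1pr1 and S1pr3/S1pr1 ratios overlapped between the groups, with differences in log2 ratio of 0.34 and -0.37 (exact permutation p = 0.3 each).

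**Figure D3:**
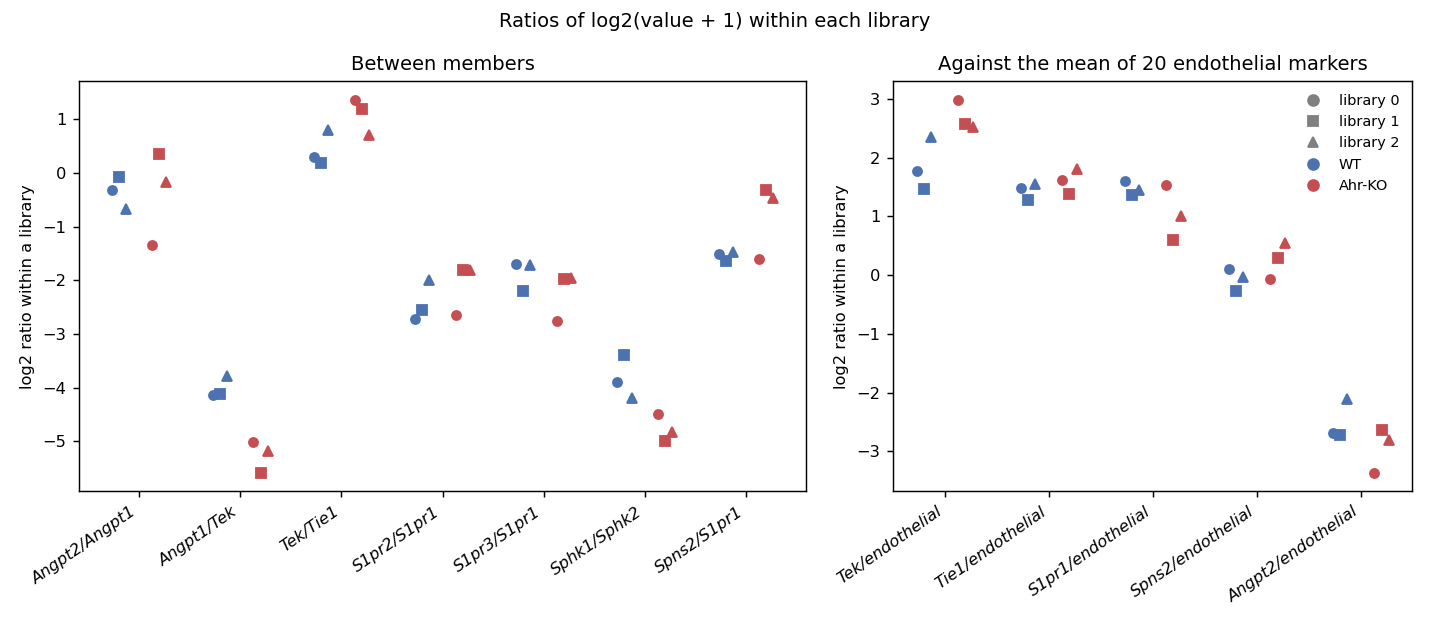
Log2 ratios within each library between pairs of the genes (left) and of 5 genes against the mean log2 of 20 endothelial markers (right), with blue for WT, red for Ahr-KO and the symbol for the library number. Angpt1/Tek, Sphk1/Sphk2 and Tek against the endothelial markers separate the genotypes, and the other ratios overlap.

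Tek was also compared with endothelial markers, since TIE2 is known mainly from endothelium. Of 20 pan-endothelial markers, 2 passed as higher and 2 as lower, an even balance that depended on scaling, since equal library totals gave 0 higher and 4 lower and limma-voom 0 and 3. The higher ones were Pecam1, an adhesion molecule of cell contacts (6608 ± 1240 against 9811 ± 1013, 1.496-fold, adjusted p = 0.044), and Clec14a, an endothelial lectin (1.40-fold, adjusted p = 0.037). The lower ones were Plvap, the diaphragm protein of fenestrae and caveolae (27116 ± 5976 against 16863 ± 1027, 1.58-fold, adjusted p = 0.047), and Emcn, the sialomucin endomucin (1.28-fold, adjusted p = 0.042). Each of these 4 calls was lost when single libraries were left out: Clec14a in all 6 such fits (highest adjusted p = 0.11), Pecam1 in all but the one without WT library 1 (0.14), and Emcn and Plvap in all but the one without WT library 2 (0.14 for both). Without the mean-variance trend, limma called none of these 4 (adjusted p = 0.081 to 0.10). Clec14a and Pecam1 also lost theirs with quantile normalisation (0.13 and 0.091) and equal totals (0.073 and 0.069). The list's median log2 difference was 0.06, and its mean log2 level was 10.99 to 11.46 in WT and 11.20 to 11.47 in Ahr-KO libraries. Relative to that mean, Tek was higher in every Ahr-KO library, with log2 ratios of 2.99, 2.58 and 2.52 against 1.78, 1.47 and 2.35 in WT (1.78-fold, exact permutation p = 0.1). Robo4, a guidance receptor of endothelium, was at 0 to 22.3 in these libraries and pulled on the mean. Without Robo4 the Tek difference was 0.80 on the log2 scale, and with the median of the list it was 1.15, and the groups stayed apart in both. The ratios of Tie1, S1pr1, Spns2 and Angpt2 to the same list overlapped between the groups, and with the list's median the differences of S1pr1 and Angpt2 went from -0.43 each to -0.11 each.

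Endothelial subtypes moved unevenly beside these values. Of 8 general capillary markers, 3 passed as higher and 3 as lower. Of 7 markers of aerocytes, the thin capillary cells of gas exchange, 2 passed as higher and none as lower. Of 8 arterial markers 2 passed as lower, of 6 venous markers 1, and of 7 lymphatic markers 3, with none higher in these lists. Plvap, Sox17, Cdh5, Cldn5, Esam, Gja4, Gja5 and Ptprb stand on more than 1 of the lists used here. The aerocyte markers summed to 8027 to 11851 in WT and 15989 to 18069 in Ahr-KO, the pan-endothelial ones to 98536 to 128521 and 126644 to 127346. Most of the aerocyte rise came from the 2 that passed, Prx (means of 3006 and 7336) and Car4 (1241 and 2970). Fibin and Sostdc1 had negative log2 differences (-0.48 and -0.65). Among cells that surround vessels, 1 of 11 pericyte markers passed as lower and limma called 0 of 9 smooth muscle markers. The smooth muscle median log2 difference was 0.36, with 6 of 9 positive. The 3 at an unadjusted limma p under 0.05 (Myh11, Lmod1 and Tagln) lay wholly above WT. Such unadjusted values were common over all genes: Sphk1, at an unadjusted limma p of 0.051, ranked only 4348 among the 15386 tested genes. Of 9 fibroblast markers 2 passed as lower. Platelets and red blood cells are stores of S1P. Of 5 tested platelet markers, limma called 0 (2 at an unadjusted p under 0.05), with sums of 298 to 511 in WT and 321 to 431 in Ahr-KO. Of 8 red blood cell markers it also called 0 (4 at an unadjusted p under 0.05), but their median log2 difference was -1.15, only Rhag was not negative, and they summed to 4837 to 16123 in WT and 2741 to 6859 in Ahr-KO. The part of these cells in the values of the S1P genes was not tested. The part of cell composition in the Tek and S1pr3 differences was not tested.

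Of 16 further genes of the angiopoietin-TIE axis, 1 passed as higher and 1 as lower, and their median log2 difference was -0.07. The balance depended on scaling: 0 were higher and 3 lower with equal library totals and with limma-voom, and 1 and 3 with quantile normalisation. Dok2, an adaptor recruited by active TIE2 and also made by blood cells, read 362, 307 and 246 across WT and 157, 125 and 139 across Ahr-KO. All 3 Ahr-KO values were lower (2.15-fold, adjusted p = 0.013), and the call was lost without Ahr-KO library 1 (0.0504) or 2 (0.059). Markers of several blood cells were lower in the same libraries: beside the T cell genes, 5 of 6 NK cell markers (sums of 2188 to 2738 in WT and 857 to 1260.5 in Ahr-KO), 4 of 6 B cell markers (1098 to 1696 and 527 to 659) and 2 of 7 macrophage markers (13869 to 17034 and 9269 to 15139) passed as lower, and none as higher. Their part in the Dok2 values was not tested. Grb7, an adaptor that binds TIE2 among other kinases, was 1.61-fold higher (332 ± 71.5 against 528 ± 14.3, adjusted p = 0.040). The Grb7 call was lost without WT library 0 or any 1 Ahr-KO library (highest adjusted p = 0.14). It also ended without the trend (0.081) and with equal totals (0.060). The largest differences that did not pass were those of Angpt4, a further TIE2 ligand at only 9.09 to 21.99 (log2 -0.69, adjusted p = 0.20), and Svep1, a matrix protein that binds TIE1 (log2 -0.61, adjusted p = 0.11). Svep1 passed without WT library 1 (adjusted p = 0.035). Ptprb, which encodes the phosphatase that switches TIE2 off, was singled out after its values were seen. It read 18449, 16822 and 24193 across WT and 30089.9, 27078 and 25185 across Ahr-KO (log2 0.48 ± 0.15, adjusted p = 0.087), and it passed without WT library 2 (0.022).

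Of 24 further genes of S1P metabolism, transport and reception, 2 passed as higher and 0 as lower, with a median log2 difference of 0.06. Sgpp2, an S1P phosphatase, rose from 18.1 ± 4.56 to 52.4 ± 17.4 (2.76-fold, adjusted p = 0.030). Acer2, a Golgi ceramidase that releases the sphingosine from which S1P is made, rose from 16713 ± 2894 to 29853 ± 8359 (1.76-fold, adjusted p = 0.046). Neither was stable to single libraries: Acer2 lost its call in all 6 fits that left out 1 (highest adjusted p = 0.12) and with equal library totals (0.064), quantile normalisation (0.069) or no trend (0.10), and Sgpp2 in 5, passing only without WT library 0 (highest adjusted p = 0.11). The largest differences that did not pass were those of the ceramide synthase gene Cers6 (log2 -0.79, adjusted p = 0.19) and of Plpp3, a phosphatase that removes extracellular S1P (5274 ± 1141 against 3643 ± 582, log2 -0.53, adjusted p = 0.095). Mfsd2b, the S1P exporter of red blood cells and platelets, was read at only 3.00 to 9.79.

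Downstream of the S1P receptors, 2 of 23 genes for G proteins and their small GTPase partners passed, both as higher, with a median log2 difference of 0.02. They were Gnai1, an inhibitory G protein subunit (467 ± 24.7 against 757 ± 135, 1.604-fold, adjusted p = 0.023), and Arhgef12, a guanine nucleotide exchange factor (3166 ± 798 against 4884 ± 235, 1.57-fold, adjusted p = 0.042). Gnai1 lost its call in 4 of 6 fits that left out 1 library, those without WT 0, WT 1, Ahr-KO 1 and Ahr-KO 2 (highest adjusted p = 0.069), and Arhgef12 without any 1 library other than WT library 2 (0.14) and with equal library totals (0.059) or quantile normalisation (0.063). Without the trend neither passed (0.058 for Gnai1 and 0.10 for Arhgef12). The Rap1 effector gene Radil (log2 0.64, adjusted p = 0.065) and the cAMP-regulated Rap exchange factor gene Rapgef3 (log2 0.56, adjusted p = 0.19) had the largest differences that did not pass, and Radil passed without Ahr-KO library 0 (0.025).

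Of 16 genes of endothelial junctions, the structures on which both systems act, 4 passed as higher and 1 as lower, and the median log2 difference was 0.30. Tjp1, a tight junction scaffold, rose 1.44-fold (adjusted p = 0.020), the nectin-binding scaffold gene Afdn 1.34-fold (adjusted p = 0.018) and Cgn, the epithelial tight junction protein cingulin, 1.40-fold (adjusted p = 0.034). The other was Jam2, a junctional adhesion molecule, named although outside the rule for named genes (1.38-fold, adjusted p = 0.039). Gja5, a connexin of arterial endothelium, fell from 2900 ± 528 to 1457 ± 81.2 (1.97-fold, adjusted p = 0.0077) and kept its call in all 6 fits that left out 1 library. Tjp1, Afdn and Cgn lost theirs in the 4 fits without WT 0, WT 1, Ahr-KO 1 or Ahr-KO 2 (highest adjusted p = 0.077, 0.078 and 0.12), and Jam2 in those without WT 0, WT 1, Ahr-KO 0 or Ahr-KO 1 (0.13). With equal library totals Cgn (0.058) and Jam2 (0.082) did not pass, and the count of higher genes was 2 with equal totals, 1 with quantile normalisation and 2 without both libraries numbered 2. Without the trend, limma gave Afdn, Tjp1, Cgn and Jam2 adjusted p-values of 0.057, 0.056, 0.086 and 0.095, so none passed. Quantile normalisation also ended the calls of Tjp1 (0.069), Cgn (0.063) and Jam2 (0.071). Claudin-5, from Cldn5, the main claudin of endothelium, did not pass (log2 0.68, adjusted p = 0.12), nor did the connexin gene Gja4 (log2 0.56, adjusted p = 0.12), though without WT library 1 both did (0.041 and 0.022). Tjp1, Afdn and Cgn are also made by epithelium. Of 8 alveolar markers 3 passed as higher and 0 as lower, while of 4 tested airway markers 0 passed as higher and 2 as lower. The part of epithelium in the junction values was not tested.

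**Figure D4:**
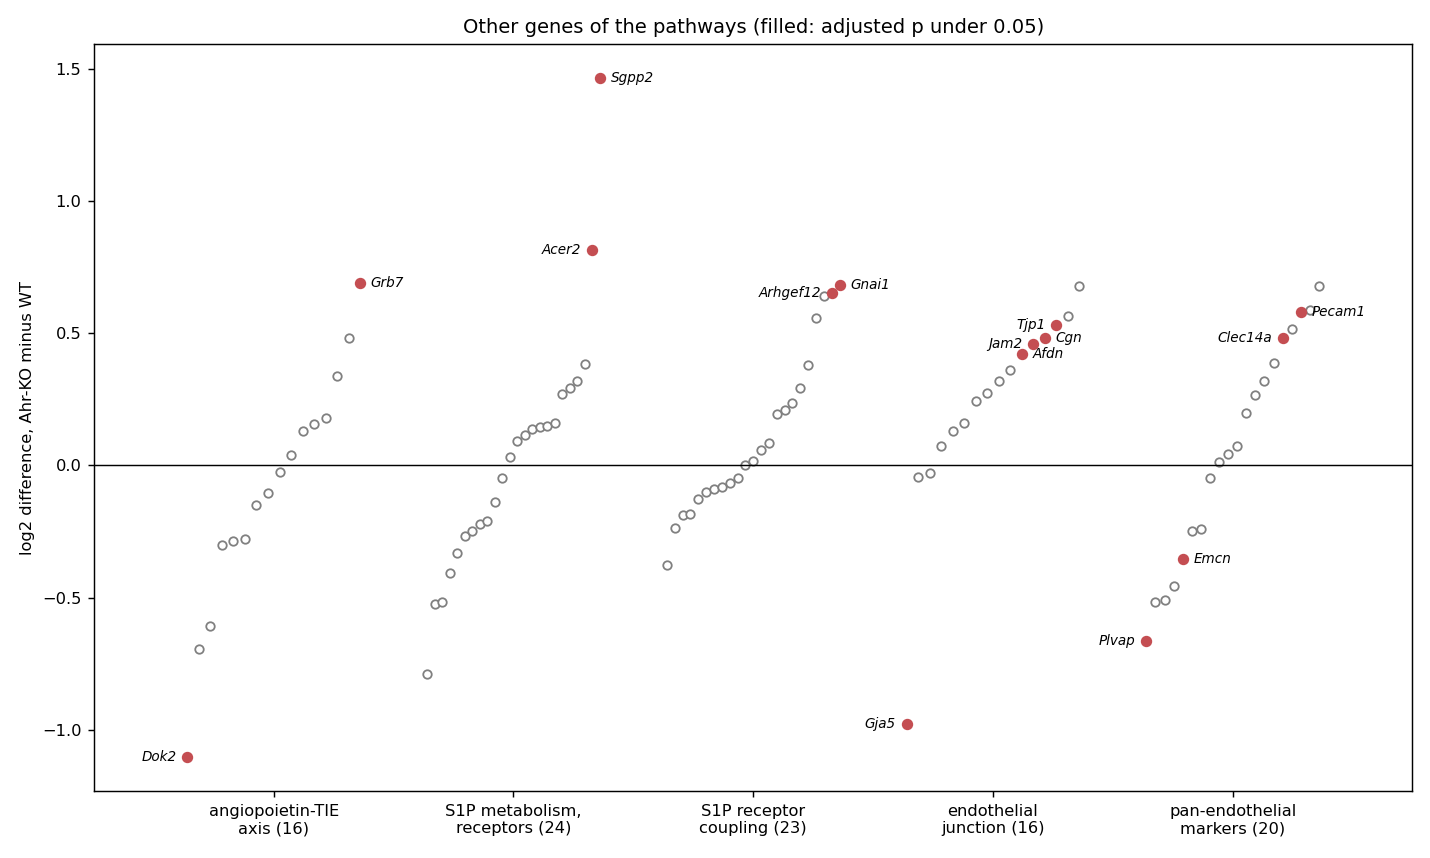
Log2 difference (Ahr-KO minus WT) of the tested genes reported on 4 pathway lists and the pan-endothelial list, each list sorted by value and filled red where the adjusted p was under 0.05. The junction list holds 4 genes past the threshold above 0 and 1, Gja5, below it, while the other lists hold 2 to 4 each.

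Finally, the genes closest in pattern to 4 of the members were found among 12630 other tested genes with a mean log2 value of at least 5. Closeness was the root mean square distance between values centred on each gene's mean over the 6 libraries. Genes picked this way resemble the member in library order, log2 difference and call by construction, so that likeness is no separate result. The closest to Tek were the phospholipase gene Plcb4 (distance 0.10), the exchange factor gene Dock9 (0.11), Fam63b (0.12) and the scaffold gene Ahnak (0.13), with log2 differences of 0.92, 0.77, 0.71 and 0.90. Plcb4 stood at 1969, 1838 and 2207 in WT and at 4168, 3709.9 and 3506 in Ahr-KO, in the same order of libraries as Tek. The closest to Tie1 were Ppp1r12c, Xab2, Inpp5f and Prpf31 (0.02 to 0.03), none of which passed the test. Among the closest to Angpt1 were Fhit, Ssh2 and Npl (0.08 to 0.10). S1pr1 lay closest to Tm6sf2, Rgs13, Eepd1 and Mcemp1 (0.06 to 0.09), again with none past the threshold. Among the 10 genes themselves the closest pair was Sphk2 and Tie1 (0.07).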

How the data were processed

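Bulk RNA-seq of total lung was measured in 3 WT and 3 Ahr-KO samples. The authors deposited 1 table of normalised signal per gene symbol and library, never negative, whose values behaved as estimated reads divided by 1 factor per library. Between 96.4% and 97.9% of the values above 0 lay within 0.05 of a whole multiple of the step that 1 read was worth (0.806 to 1.40). The rest were fractions, so limma-trend was used in place of the count test kept for whole counts. The build was rn6 and FastQC was used, per the submitters' processing notes; for the aligner, counter, annotation and strand setting, nothing is given in the sources used here. Columns number libraries from 0 and the titles from 1, so a column was tied to its group only.

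Values were taken as deposited, transformed to log2(value + 1), filtered (at least 1 in at least 3 libraries) and fitted with limma 3.58.1 in R 4.3.3, using a mean-variance trend and no term beside genotype. Tests were 2-sided, with Benjamini-Hochberg adjustment over 15386 genes. A fold is the log2(value + 1) difference taken back to the linear scale, which understates the change of low genes. The code was tested on simulated data. Levels were not compared between genes, since transcript lengths were not used.

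The members and lists were chosen with earlier results of these data known. Named are all members, up to 5 genes per pathway list with the lowest p past the threshold, the 2 with the largest difference not past it, and the 4 closest in pattern to Tek, Tie1, Angpt1 and S1pr1; others are said to be chosen after their values were seen. Some genes that the rule gave are not reported here, and the junction list is counted without one of them. The 4 pan-endothelial markers and Robo4 were also chosen so. Alternatives were other scalings, limma settings, filters, the library number as a block, a pseudocount of 0.1, a threshold of 0.10 and each library left out. The fit without both libraries numbered 2 and the endothelial list without Robo4 were added after seeing the data.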

Additional observations from a re-analysis of the deposited data

How the results depend on the processing

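Tek stayed positive in each of the 18 alternatives (log2 0.72 to 1.14) and S1pr3 negative (-0.86 to -0.56). Tek passed in 16 and S1pr3 in 12. The sign of S1pr2, never near the threshold, turned to 0.039 without WT library 2 and 0.029 without Ahr-KO library 0, within -0.093 to 0.039 over the fits that left out 1 library. The other 7 members kept their sign and none passed. The count of members past the threshold as lower was 0 without the trend, with the library number as a block and without both libraries numbered 2; leaving out 1 library gave 0 to 1 as higher and 0 to 1 as lower.

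Over all genes, 1655 were called, 692 higher and 963 lower. Leaving out 1 library gave 407 to 1834 calls, with 135 to 930 higher and 272 to 920 lower. Leaving out library 2 gave both extremes of the total, the lowest for Ahr-KO and the highest for WT. Limma without the trend called 952 (301 higher). A threshold of 0.10 called 2853 (1286 higher, 1567 lower) and the fit without both libraries numbered 2 called 553 (268 higher, 285 lower). Scaling shifted the balance: 449 higher and 1314 lower with equal totals, and 436 higher and 1290 lower with limma-voom, run on step-scaled values. The deposited values summed to 17.8 to 18.0 M per library in WT and 18.9 to 19.3 M in Ahr-KO. Setting these totals equal therefore lowers the log2 differences. The median over all tested genes went from 0.01 to -0.08 with either of these 2 settings. The cause of the higher Ahr-KO totals was not tested.

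Deviations from the group means of same-numbered libraries correlated at -0.10, 0.07 and -0.07 across genes, and 2 of 6 libraries correlated best with their own number. These values gave no sign that the numbers pair samples, but with so few libraries they cannot exclude it. With the replicate block, 899 genes were called (334 higher, 565 lower); Tek stayed called and S1pr3 stood at adjusted p = 0.056. Against the median of the endothelial list, the Tie1 and Spns2 ratios moved to 0.49 and 0.64 from 0.17 and 0.32, and those of S1pr1 and Angpt2 both to -0.11 from -0.43. Among the 10 members, depth limits Sphk1 most, at 36 to 122 reads.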
